A study of Mus musculus with 10 samples.

Results

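Fatty acid uptake, activation and beta-oxidation were described here through 31 genes in mouse GMPs, the granulocyte-macrophage progenitors of the bone marrow. The genes were those of a fixed list, arranged in 9 steps from entry into the cell to electron transfer and transcriptional control. They were 31 of the 51717 genes to which the deposited transcript estimates could be summed, and 27 of the 31 passed the filter on low counts and were tested among 12381 genes. Both groups were sorted CD45.2+ donor cells from bone marrow chimeras, in which irradiated CD45.1 hosts keep some cells of their own, and all donors were labelled as male C57Bl6/N mice carrying ROSA26 CreER+/-. The paper's mixed Mpc2 chimeras also received WT CD45.1 marrow as a competitor, and its RNA methods do not state the mix used here. The 5 WT samples carried CreER alone, and the 5 recent Mpc2 KO samples carried Mpc2fl/fl in addition. All animals, the WT included, had received tamoxifen chow for 2 wk, which activates CreER and removes floxed exon 3 of Mpc2, a subunit of the carrier that brings pyruvate into mitochondria. Each WT sample was 1 mouse. Cells of 2 mice were pooled for each recent KO sample, which therefore averages over its pair, and the age of the mice was not given. The comparison bears on the question the study raised, whether progenitors that can no longer import pyruvate change their transcripts toward another carbon source.

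Long-chain fatty acids enter cells through transporters and are joined to coenzyme A by acyl-CoA synthetases. The carnitine shuttle carries the acyl group into the mitochondrial matrix: Cpt1 on the outer membrane forms acylcarnitine, a translocase moves it inward and Cpt2 restores acyl-CoA. There, repeated rounds of dehydrogenation, hydration, a further oxidation and thiolysis shorten the chain and release acetyl-CoA, which feeds the same TCA cycle that mitochondrial pyruvate feeds. Electrons of the acyl-CoA dehydrogenases pass to the electron transfer flavoprotein and on to ubiquinone. PPAR-alpha and PPAR-delta are nuclear receptors that bind fatty acids and raise transcription of many genes of this route.

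The deposited estimates held 14033776 to 19745405 reads per sample. Genes are compared with each other in TPM, which corrects for transcript length, and groups in CPM, the read count relative to the library total after TMM normalization. Every ± is an SD over 5 samples, and a sample's 3-read floor, which covers counting error only, lay at 0.146 to 0.233 CPM. Mpc2 itself was at 60.9 to 117 CPM in WT and at 17.1 to 43.9 CPM in recent KO samples, without overlap (edgeR adjusted p = 0.0156, a call that was lost in some alternatives). GMP genes of the granule program, such as Mpo and Elane, were abundant in every sample. The summed level of 11 GMP markers, most of it from Mpo and Elane, stood at 90064 to 127264 CPM in WT and at 53662 to 92010.5 CPM in recent KO samples. By edgeR 8 of the 11 had an unadjusted p under 0.05, all lower in recent KO samples, beside 10.2% of all tested genes. Past the adjusted threshold there were 0, beside 0.331% of all tested genes. Among the rest, Kit and Cd34 had higher estimates and Cebpa a lower one. In such sorted bulk samples, fewer cells of a type and less RNA per cell cannot be told apart. The samples were separate chimeras, but whether they shared donor marrow is not stated, so p-values measure the spread between these samples.

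Shown first are 3 stretches of promoter, because the results turn on the genes beside them: Cpt1a had the smallest p-value, Etfb the highest level, and Hadha and Hadhb are 2 subunits transcribed away from each other at unequal levels. The sequences are from RefSeq on GRCm38.p6, read 5′ to 3′ on the plus strand and outside annotated exons of these genes, and the Cpt1a stretch lies in the first intron of the minor transcript Cpt1a-206. Capitals mark, on either strand, the GC box with the letters GGGCGG, the CCAAT box, and AGGTCA, the core to which nuclear receptors bind.
Cpt1a, chr19:3323051-3323284: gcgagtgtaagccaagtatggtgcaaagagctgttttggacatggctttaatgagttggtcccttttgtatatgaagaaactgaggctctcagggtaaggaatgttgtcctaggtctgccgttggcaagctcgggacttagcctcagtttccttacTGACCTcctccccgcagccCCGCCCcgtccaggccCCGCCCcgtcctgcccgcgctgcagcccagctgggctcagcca
Etfb, chr7:43443822-43444071: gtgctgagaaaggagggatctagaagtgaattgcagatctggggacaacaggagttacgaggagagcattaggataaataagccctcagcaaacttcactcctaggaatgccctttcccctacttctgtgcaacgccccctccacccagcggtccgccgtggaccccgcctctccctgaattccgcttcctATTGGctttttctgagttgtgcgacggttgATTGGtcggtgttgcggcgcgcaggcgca
Hadha (to the left) and Hadhb (to the right), chr5:30155163-30155247: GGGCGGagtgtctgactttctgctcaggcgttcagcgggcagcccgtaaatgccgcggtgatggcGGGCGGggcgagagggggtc

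The Cpt1a stretch held 2 GC boxes and 1 AGGTCA core, the Etfb stretch 2 CCAAT boxes, and the 85 bases between Hadha and Hadhb 2 GC boxes. RefSeq windows from 250 bases before to 50 bases after the start were at hand for 28 of the 31 genes, 33 windows in all. Acsl1, Acsl6 and Slc27a1 had several windows each, and those of Hadha and Hadhb overlap. The median share of G and C bases was 60.7% in these windows and 52.7% in all windows, and its part in the counts below was not tested. A GC box was present in 26 of the 33 windows, against 35.7% of all 32851 windows, and a CCAAT box in 17, against 37.4%. No window held a TATA box (TATAAA), found in 13.6% of all windows. The AGGTCA core was present in 6 windows, against 16.3% of all, and none held AGGTCANAGGTCA, the spaced pair of cores to which PPAR and RXR bind as a dimer, which 0.0396% of all windows held. Both strands were searched, the spaced pair contains the core, and these counts describe letters in these windows only.

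WT GMPs expressed a nearly complete mitochondrial beta-oxidation route. Of the 6 step sums given next, uptake was the lowest and electron transfer the highest, without a steady rise between them. The steps hold unequal numbers of genes, and the thiolysis step includes the peroxisomal Acaa1a. Single genes did not follow the order of the sums: Etfdh of electron transfer was at 15.8 TPM in WT, below the synthetase Acsl5 at 26.7 TPM. The 3 uptake genes summed to 3.35 ± 0.7395 TPM, the 5 synthetases to 42.9 ± 3.51 TPM and the 2 carnitine shuttle genes to 11.99 ± 0.789 TPM. The 4 chain-length dehydrogenases reached 106 ± 11.6 TPM, the 6 genes of hydration, oxidation and thiolysis 386 ± 37.4 TPM, and the 3 electron transfer genes 2103 ± 89.5 TPM. The WT ranges of these 6 sums did not overlap. Electron transfer made up 73.9% of the summed TPM of the 31 genes, almost all of it from Etfb, and the 2 PPAR genes 0.00634%.

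Between groups, the step sums in TPM overlapped at every step but the shuttle. The shuttle pair summed to 15.3 ± 1.02 TPM in recent KO samples (13.6 to 16.1 TPM, against 10.9 to 12.9 TPM in WT), the only step whose ranges did not meet. Uptake came to 3.94 ± 0.871 TPM in recent KO samples, and the PPAR pair, counted from few reads, had 0.111 to 0.245 TPM in WT and 0.143 to 0.994 TPM in recent KO samples. The sums are a description without a test, and the median gene on the log2(TPM + 1) scale was 0.05 higher in recent KO samples. The synthetases came to 43.2 ± 3.95 TPM, the chain-length dehydrogenases to 110.2 ± 5.73 TPM, hydration, oxidation and thiolysis to 390.3 ± 40.2 TPM, and electron transfer to 1994 ± 197 TPM in recent KO samples. All 31 genes together without Etfb held 902 ± 80.3 TPM in WT and 919.7 ± 58.9 TPM in recent KO samples.

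**Figure D1:**
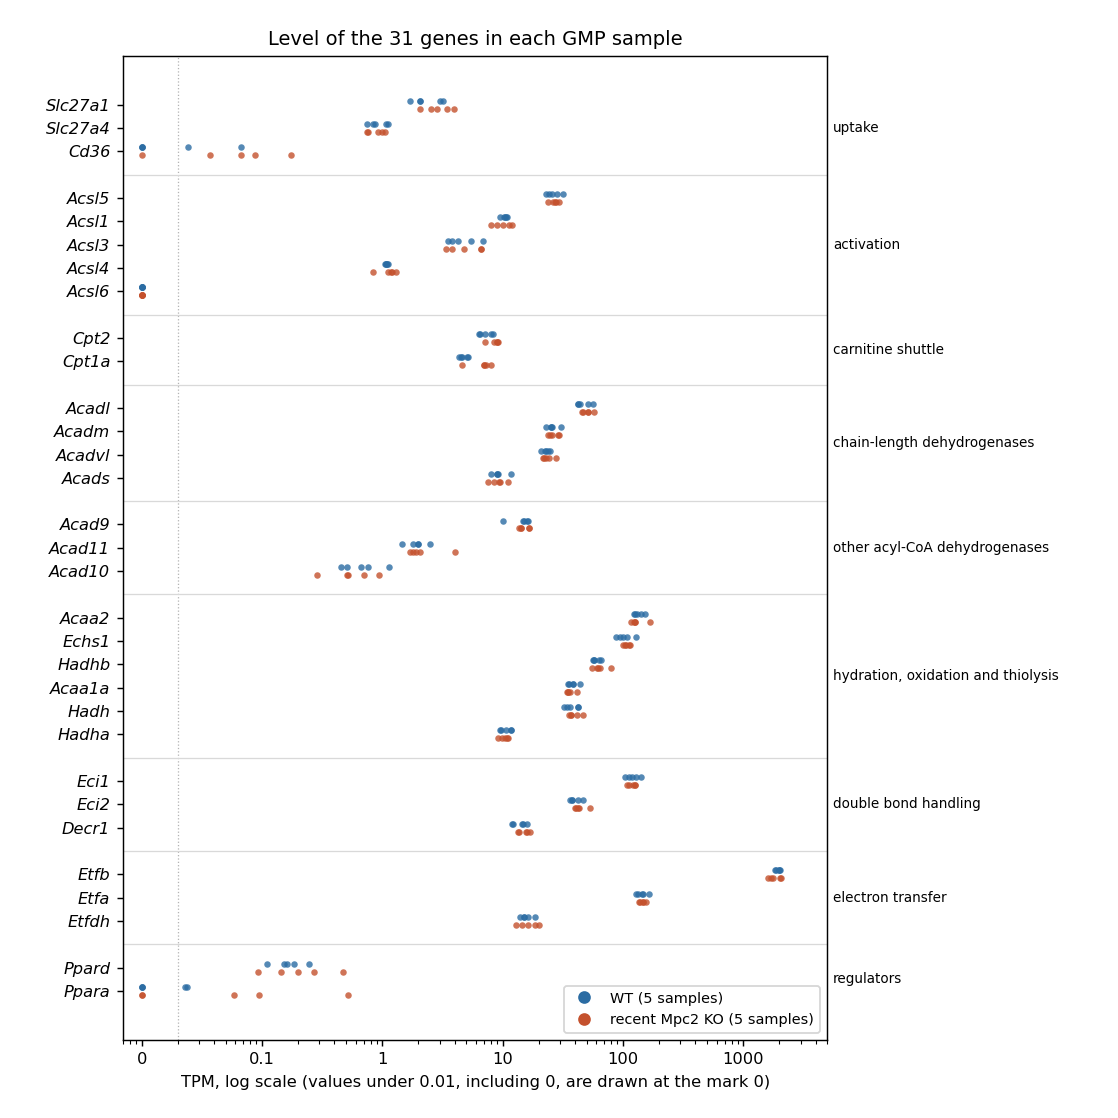
Level of each of the 31 genes in TPM on a log axis, grouped by step, with a point for each of the 5 WT (blue) and 5 recent Mpc2 KO (orange) samples. Etfb lies at 1833 to 2038 TPM in WT while Cd36, Acsl6, Ppara and Ppard lie under 1 TPM, and for every gene the points of the groups overlap in TPM.

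Recent loss of Mpc2 moved no gene of the route past the threshold. Of the 27 tested genes, 0 had an adjusted p under 0.05 by edgeR's quasi-likelihood test, where 0.331% of all tested genes did, and no gene had groups without overlap in CPM, where 2.42% of all tested genes did. DESeq2 called 1 of the 27, Cpt1a, and also called more of all genes than edgeR did, with both counts given in the closing section. At an unadjusted p under 0.05 there were 4 genes, Cpt1a higher and Acad9, Acaa1a and Acads lower in recent KO GMPs, beside a share of 10.2% among all tested genes. Estimates were higher for 10 and lower for 17 of the 27 genes, and for 6133 and 6248 of all genes tested. That split turned with the scaling: 17 of the 27 were higher and 10 lower with library size only (8291 and 4090 of all genes), and 18 of the 25 genes tested by limma on log2(TPM + 1) were higher. The median log2 fold change was -0.03 over the 27 genes and -0.00184 over all genes, and the median of its absolute size was 0.0707 and 0.105. Recent KO 2 was the highest of the 10 samples for 7 of the 27 genes, against 15.6% of all tested genes, and recent KO 3 was the lowest for 8, against 12.2% of all tested genes.

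How large a change could have been missed was read from the 95% intervals. These intervals are those of the main fit and leave out the choice of scaling and length correction. With other settings the log2 fold change reached 0.30 for Slc27a1 and 0.08 for Acad9, above the upper ends of their intervals (0.23 and -0.03). For 25 of the 27 genes the whole interval lay within 1.5-fold of WT in either direction, and for 19 within 1.25-fold. The same held for 68.9% and 40.05% of all tested genes, many of which had fewer reads. The exceptions to the 1.5-fold bound were Cpt1a, whose interval lay above 1, and Acad10, whose interval of 0.687 to 1.51-fold rested on 25 to 43 reads per sample. The median coefficient of variation between WT samples was 8.14% for the 27 genes and 12.2% for all genes.

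**Figure D2:**
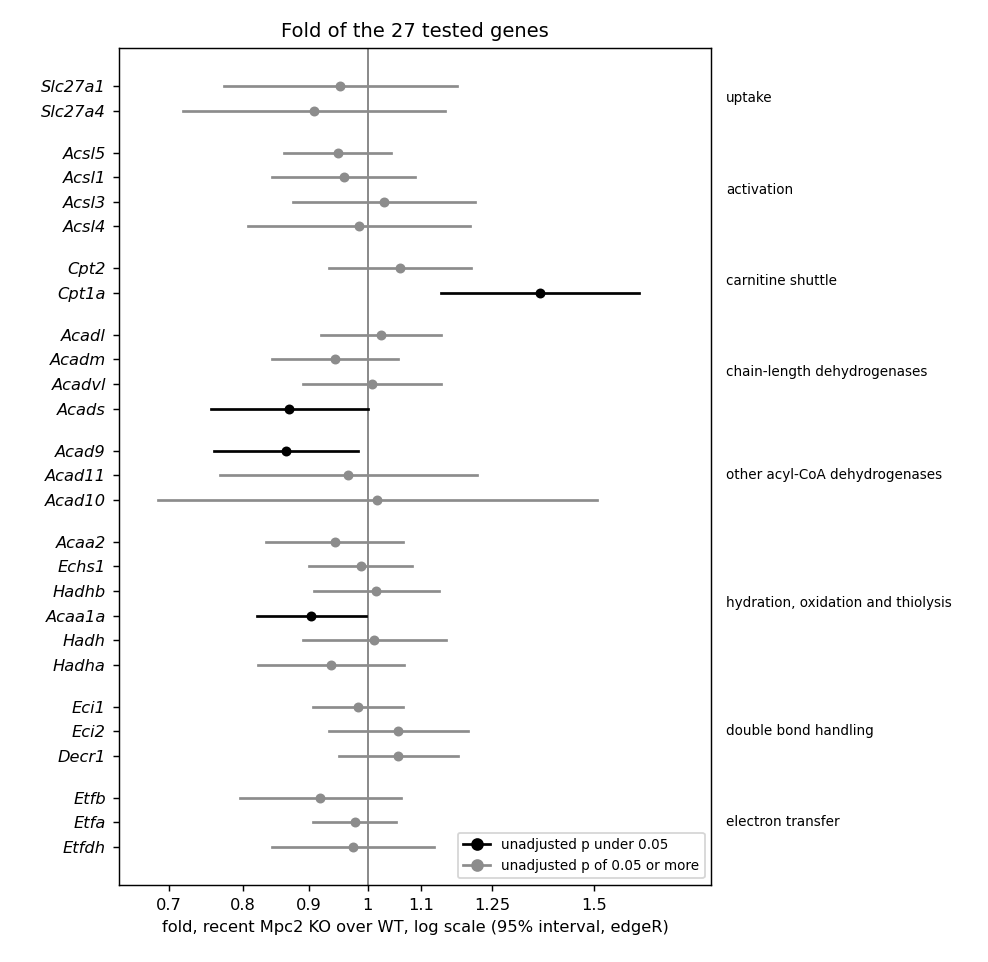
Fold of recent Mpc2 KO over WT on a log axis for the 27 tested genes, with 95% intervals from edgeR; black marks an unadjusted p under 0.05. The interval of Cpt1a lies furthest to the right, at 1.14 to 1.63-fold, and most other intervals cross 1.

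At the point of entry, fatty acid transport genes were low. Slc27a1 (Fatp1), an acyl-CoA synthetase and transporter of long-chain fatty acids, was the highest of the 3 at 2.402 ± 0.659 TPM in WT, and Slc27a4 (Fatp4), of the same family, stood at 0.934 ± 0.162 TPM. Slc27a1 was at 6.55, 7.75, 6.88, 6.05 and 6.04 CPM in WT samples 1 to 5 and at 6.18, 7.89, 6.49, 4.86 and 6.33 CPM in recent KO samples 1 to 5. The groups overlapped throughout, with a fold of 0.952 (95% interval 0.773 to 1.17) for Slc27a1 and 0.908 (95% interval 0.718 to 1.15) for Slc27a4. About 52.7% of the Slc27a1 reads in WT were assigned to the coding transcript Slc27a1-207, and much of the rest to transcripts annotated with retained introns. Cd36, the scavenger receptor that takes up fatty acids in fat, muscle and macrophages, had at most 8 reads in a sample and more than 3 reads in 3 of 10 samples, and was not tested.

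Among the acyl-CoA synthetases, Acsl5 led. In WT it was at 26.7 ± 3.35 TPM, ahead of Acsl1 at 10.3 ± 0.511 TPM, Acsl3 at 4.79 ± 1.404 TPM and Acsl4 at 1.08 ± 0.0277 TPM, and the WT ranges of these 4 did not overlap. Acsl6, a synthetase known from brain and red cells, had no reads in any of the 10 samples, which leaves room for up to 3 reads a sample. Acsl1, the main synthetase of fat, liver and heart, was credited with 51.7% of its WT TPM through Acsl1-210, a transcript of 1 exon with a retained intron, and its coding transcript Acsl1-201 alone amounted to 4.68 TPM. That transcript alone is near the level of the Acsl3 gene.

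Acsl5 (chr19:55251938-55297720, plus strand), which activates fatty acids at mitochondria and the endoplasmic reticulum, was at 153, 128, 126, 144 and 132 CPM in the WT samples and 129, 123, 130.3, 138 and 127 CPM in the recent KO samples. WT 1 was the highest and the remaining values of both groups lay among each other (log2 fold change -0.08 with SE 0.06, 95% interval -0.22 to 0.06; edgeR adjusted p = 0.753, unadjusted p = 0.244, exact two-sided permutation p = 0.254). The gene runs opposite to Zdhhc6, at 73.6 CPM in WT, and no strand setting is stated. Acsl5 made up 62.1% ± 3.78 of the summed synthetase TPM in WT and 62.5% ± 3.33 in recent KO samples. The shares of Acsl1 (24.3% and 23.3%), Acsl3 (11.1% and 11.6%) and Acsl4 (2.54% and 2.64%) likewise overlapped between groups, and the 95% intervals of all 4 tested synthetases lay within 0.807 to 1.21-fold.

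**Figure D3:**
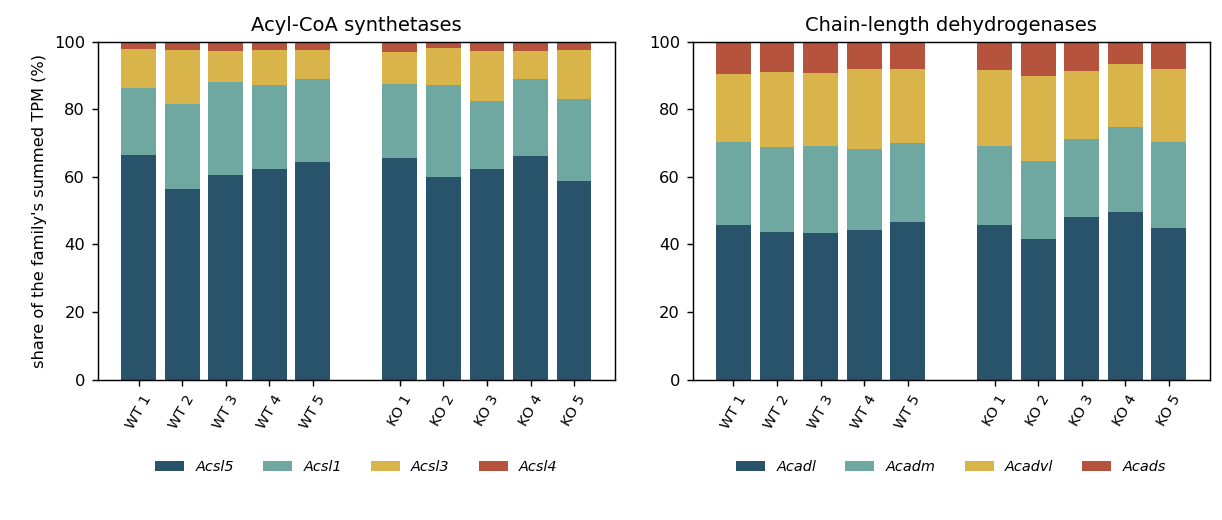
Share of each gene in the summed TPM of its family, in percent, as stacked bars for each WT and recent Mpc2 KO (KO) sample: acyl-CoA synthetases on the left and chain-length dehydrogenases on the right. Acsl5 takes 56.5% to 66.3% and Acadl 41.6% to 49.6%, the largest share of their family in each of the 10 samples.

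The carnitine shuttle was the only step in which a gene had an unadjusted p under 0.01. Cpt1a (chr19:3322334-3385733, plus strand, ENSMUSG00000024900), the liver-type enzyme that commits long-chain acyl groups to mitochondria and is inhibited by malonyl-CoA, was at 22.6, 22.5, 27.3, 27.01 and 20.4 CPM in WT samples 1 to 5. It was at 23.8, 33.5, 33.6, 37.5 and 34.4 CPM in recent KO samples 1 to 5. Recent KO samples 2 to 5 lay above every WT sample, whereas recent KO 1 lay inside the WT range, so the groups overlapped by that sample. The estimate was 1.36-fold (95% interval 1.14 to 1.63), or log2 fold change 0.45 with SE 0.12, 95% interval 0.19 to 0.70, and did not pass the threshold (edgeR adjusted p = 0.189, unadjusted p = 0.00228, exact two-sided permutation p = 0.0238).

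The Cpt1a call depended on the tool and on that sample. It passed with DESeq2 (adjusted p = 0.0401), without the filter on low counts (edgeR adjusted p = 0.0294), and with recent KO 1 left out (edgeR adjusted p = 0.0356), and it missed the threshold in all other alternatives, where the edgeR or limma adjusted p ranged from 0.103 to 0.623. The log2 fold change stayed between 0.39 and 0.54 in all of them. Nearly all Cpt1a reads, 95.5% in WT and 97.3% in recent KO samples, were assigned to the full-length coding transcript Cpt1a-201, whose promoter is printed above. That transcript was at 4.28 ± 0.388 TPM in WT and 6.32 ± 1.25 TPM in recent KO samples.

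Markers of other cells also differed between these samples. The summed level of 10 erythroid markers, hemoglobin genes among them, was 51.4 to 96.6 CPM in WT. It was 75.2 and 72.1 CPM in recent KO 1 and 2 and 209 to 308 CPM in recent KO 3 to 5. Of the 9 tested erythroid genes 0 passed and all 9 estimates were higher. By edgeR 6 of the 9 had an unadjusted p under 0.05, beside 10.2% of all tested genes. For 7 macrophage markers the sums stood at 16.03 to 31.2 CPM in WT and at 46.1, 60.5, 45.8, 36.7 and 34.5 CPM in recent KO samples 1 to 5. Of these 7 markers 3 passed, all higher, beside 0.331% of all tested genes: the complement genes C1qa, C1qb and C1qc. Of the other 4 macrophage markers, Cd5l, Mrc1 and Vcam1 had higher estimates and Adgre1, the gene of the F4/80 antigen, a lower estimate (log2 fold change -0.39), and none passed. All 7 macrophage markers exceeded 3 reads in every sample. The erythroid sums of recent KO 1 and 2 lay inside the WT range, with Cpt1a at 23.8 and 33.5 CPM in these samples. Recent KO 2 had the highest macrophage sum. Sums of 5 megakaryocyte markers (8.69 to 17.1 CPM in WT against 21.4 to 29.7 CPM) and of 5 stem and multipotent markers (24.2 to 29.3 against 31.2 to 53.1 CPM) were higher in every recent KO sample than in every WT sample. Among the stem and multipotent markers only Flt3 had groups without overlap (10.2 to 15.2 against 18.2 to 37.7 CPM). Hlf overlapped, and Mecom, Procr and Slamf1 had unadjusted p-values of 0.374 to 0.756 by edgeR. Estimates were higher for 7 of 8 late neutrophil markers and lower for all 5 monocyte markers, whose sums overlapped between groups (113 to 424 against 106 to 746 CPM, and 2596 to 3963 against 989 to 3695 CPM). By edgeR 6 of the 8 and 3 of the 5 had an unadjusted p under 0.05, beside 10.2% of all tested genes. In WT the largest parts of these sums were S100a8 (200 CPM), the late neutrophil marker without a higher estimate, and Ly6c2 (2936 CPM). No gene of these 4 lists passed the adjusted threshold, and for basophil, mast cell and eosinophil, B cell, T and NK cell, and adipocyte and stroma markers the sums overlapped as well. The T and NK cell sum was almost all Nkg7 (2239 CPM in WT) and the B cell sum almost all Cd79b (59.6 CPM), so each follows a single gene. The other T and NK cell markers had few reads and higher means in recent KO samples, such as Cd3d (0.306 CPM in WT, 0.662 CPM) and Trbc2 (0.331 CPM in WT, 0.762 CPM). The part of these cells in the Cpt1a values was not tested.

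Cpt2 (chr4:107903981-107923610, minus strand), the inner membrane partner, was at 21.1, 17.4, 19.9, 18.5 and 19.7 CPM in WT and at 21.9, 21.1, 21.6, 17.6 and 20.1 CPM in recent KO samples. The values overlapped, with 2 recent KO samples above the highest WT sample (log2 fold change 0.08 with SE 0.08, 95% interval -0.10 to 0.27; edgeR adjusted p = 0.817, unadjusted p = 0.345, exact two-sided permutation p = 0.2698). In TPM, Cpt2 exceeded Cpt1a in all 5 WT samples, at 6.41 to 8.296 against 4.32 to 5.16 TPM. In recent KO samples the ranges met, 7.13 to 9.11 against 4.58 to 8.01 TPM, and the ratio of Cpt1a to Cpt2 was 0.663 ± 0.1103 in WT and 0.807 ± 0.2205 in recent KO samples, reaching 1.12 in recent KO 4. Slc25a20, the carnitine-acylcarnitine translocase, which is outside the 31 genes and is named to complete the shuttle, was at 15.2 ± 1.83 TPM in WT, with log2 fold change 0.08 with SE 0.08, 95% interval -0.09 to 0.26 (edgeR adjusted p = 0.808). The muscle isoform Cpt1b had reads in 2 of 10 samples, recent KO 1 and 2, with at most 21. Cpt1c, the brain isoform, had 7 to 49 reads and overlapped between groups in CPM (log2 fold change -0.43 with SE 0.36, 95% interval -1.19 to 0.33; edgeR adjusted p = 0.753). Its share of the summed TPM of the 3 isoforms was 6.85% to 18.1% in WT and 2.76% to 5.77% in recent KO samples, without overlap, and that of Cpt1a 81.9% to 93.2% and 89.98% to 94.8%. Shares of the same total are tied, so the Cpt1c share also depends on the Cpt1a level. It was below the WT range in recent KO 1 too, where Cpt1a was at 4.58 TPM, inside its WT range. What lowered the Cpt1c share was not tested. Both isoforms are outside the 31 genes and were named after their values were seen.

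The 4 acyl-CoA dehydrogenases that carry out the first reaction of each round differ in the chain length they accept. Acadl (long chains) was at 47.4 ± 6.32 TPM in WT, Acadm (medium chains) at 26.1 ± 2.86 TPM, Acadvl (very long chains) at 23.03 ± 1.52 TPM and Acads (short chains) at 9.36 ± 1.44 TPM. Acadl lay above all others in every WT sample and Acads below, while the WT ranges of Acadm (23.1 to 30.8 TPM) and Acadvl (21.03 to 24.99 TPM) overlapped. Acadl made up 44.7% ± 1.34 of the 4 in WT and 45.9% ± 3.07 in recent KO samples.

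Acadl (chr1:66830839-66863277, minus strand) was at 112, 93.7, 96.3, 97.3 and 104 CPM in WT and at 104, 90.1, 103, 115 and 103 CPM in recent KO samples, with no separation between groups (fold 1.02 (95% interval 0.919 to 1.14), edgeR adjusted p = 0.9195). Acadm and Acadvl likewise had folds near 1, at 0.943 (95% interval 0.843 to 1.06) and 1.01 (95% interval 0.8897 to 1.14). Acads (chr5:115110299-115119346, minus strand) was at 21.995, 18.4, 20.04, 17.6 and 17.7 CPM in WT and at 17.6, 18.7, 15.7, 14.7 and 16.8 CPM in recent KO samples. In 3 recent KO samples Acads lay below every WT sample, and in recent KO 1 and 2 it lay at or inside the WT range (log2 fold change -0.20 with SE 0.09, 95% interval -0.40 to -0.00077; edgeR adjusted p = 0.485, unadjusted p = 0.0493, exact two-sided permutation p = 0.0714). The lower Acads estimate did not pass the threshold and shrank to -0.08 with a transcript length offset and to -0.02 on the log2(TPM + 1) scale. The coding transcript Acads-201, with 98.97% and 98.04% of the reads, was at 9.19 ± 1.34 TPM in WT and 8.26 ± 0.809 TPM in recent KO samples, with overlap. The noncoding Acads-204 was at 0.0478 TPM in WT and 0.923 TPM in recent KO samples, from a mean of 0.251 and 4.92 reads.

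Among the related dehydrogenases, Acad9, which acts on long chains and is also needed to assemble respiratory complex I, was the highest at 14.4 ± 2.495 TPM in WT. Acad9 (chr3:36065979-36092853, plus strand) was at 52.2, 57.2, 48.02, 51.2 and 48.8 CPM in WT and at 46.6, 43.8, 48.5, 35.9 and 47.5 CPM in recent KO samples. Recent KO 1, 2, 4 and 5 were below every WT sample in CPM, with recent KO 4 the lowest, and recent KO 3 was inside the WT range (log2 fold change -0.21 with SE 0.09, 95% interval -0.40 to -0.03; edgeR adjusted p = 0.41998, unadjusted p = 0.0282, exact two-sided permutation p = 0.0159). This direction did not hold for the TPM summed over all transcripts of the gene. In TPM, Acad9 was at 15.1 ± 1.34 in recent KO samples, and the log2 fold change was 0.01 with a transcript length offset and 0.07 on the log2(TPM + 1) scale. The coding transcript Acad9-201 took 89.3% and 89.02% of the reads in the groups. Its own TPM was lower in recent KO samples, at 8.66 ± 0.970 against 9.58 ± 1.02 in WT, with overlap. Acad9-208, a short transcript with a retained intron, was at 2.95 TPM in WT and 4.80 TPM in recent KO samples. It took 18.9% ± 11.98 of the TPM in WT and 32.1% ± 10.05 in recent KO samples. Acad11, whose substrates are very long chains, was at 1.94 ± 0.377 TPM, and Acad10 at 0.705 ± 0.269 TPM is uncertain, since it is 95.3% identical to Acad12 over 1614 bases and both had few reads.

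Enzymes that finish each round spanned a wide range of levels. Acaa2, the mitochondrial thiolase of medium chains, was at 135 ± 12.7 TPM in WT, Echs1, the short-chain enoyl-CoA hydratase, at 104 ± 16.1 TPM, Hadh, the short-chain 3-hydroxyacyl-CoA dehydrogenase, at 37.6 ± 4.8002 TPM, and Acaa1a, the peroxisomal thiolase, at 38.3 ± 3.56 TPM. WT ranges of Acaa2 and Echs1 met, as did those of Hadh and Acaa1a. Acaa2 on chromosome 18 was at 225, 201, 211, 222 and 217 CPM in WT and at 209, 248, 175, 190.3 and 192 CPM in recent KO samples. Recent KO 2 was the highest of all 10 samples and recent KO 3 the lowest, so that the recent KO spread enclosed the WT values (fold 0.942 (95% interval 0.834 to 1.07), edgeR adjusted p = 0.805). Echs1 had a fold of 0.987 (95% interval 0.901 to 1.08) and Hadh of 1.01 (95% interval 0.8899 to 1.15).

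Acaa1a (chr9:119339676-119350299, plus strand) was at 76.8, 68.02, 71.98, 77.8 and 70.7 CPM in WT and at 69.5, 71.6, 62.3, 65.4 and 61.4 CPM in recent KO samples. Recent KO 3, 4 and 5 lay below every WT sample, and recent KO 1 and 2 lay inside the WT range (log2 fold change -0.15 with SE 0.07, 95% interval -0.29 to -0.01; edgeR adjusted p = 0.459, unadjusted p = 0.0423, exact two-sided permutation p = 0.0476). Its near copy Acaa1b, 96.6% identical over 1428 bases, had 0.05096 CPM in WT, and the end of Acaa1a overlaps Myd88 on the opposite strand, which was at 59.5 CPM. Without strand, reads of the 2 genes in the overlap cannot be told apart.

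**Figure D4:**
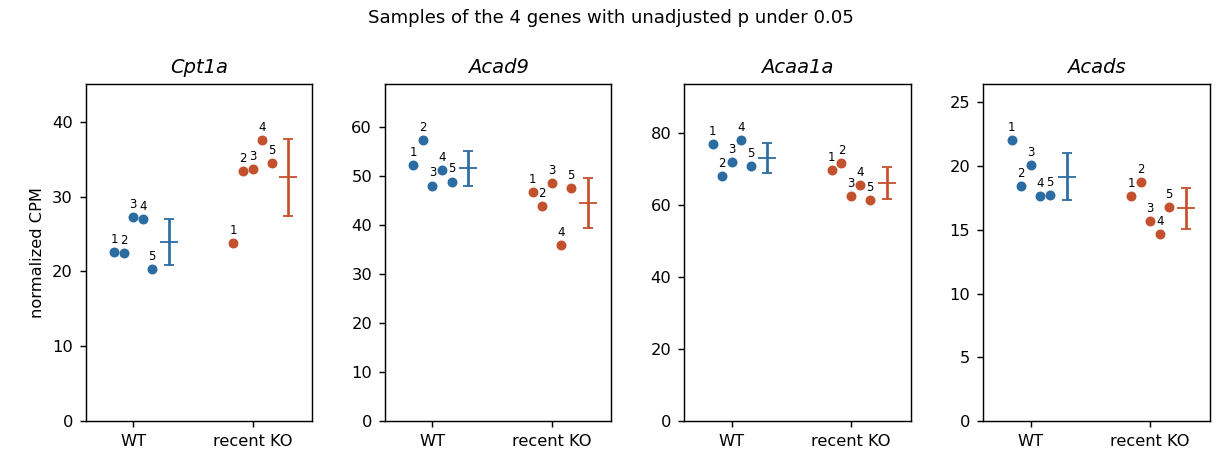
Normalized CPM of the 4 genes with an unadjusted p under 0.05 in each WT (blue) and recent Mpc2 KO (orange) sample, numbered by replicate, with mean and SD beside the points and axes that start at 0. Recent KO 1 is the sample in which Cpt1a stays at WT level, 23.8 CPM against 33.5 to 37.5 CPM in the other 4, and in all 4 genes the groups overlap.

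The trifunctional protein of long chains is made of Hadha (hydratase and 3-hydroxyacyl-CoA dehydrogenase) and Hadhb (thiolase), which assemble together. Their genes lie head to head, Hadha at chr5:30118304-30155162, minus strand and Hadhb at chr5:30155248-30184593, plus strand, with the 85 bases printed above between them. Hadhb was at 63.9, 65.6, 56.9, 57.03 and 57.6 TPM in WT samples 1 to 5 and Hadha at 11.6, 10.7, 11.9, 9.699 and 9.44 TPM. The ratio of Hadhb to Hadha was 5.68 ± 0.557 in WT and 6.29 ± 1.02 in recent KO samples, with recent KO 2 at 8.11 and the other 4 at 5.72 to 5.99. Of the WT reads of Hadha, 48.2% were assigned to Hadha-201, a transcript of 20 exons annotated as not coding, and 47.8% to the coding Hadha-205, of 20 exons as well. The shares were 46.1% and 50.8% in recent KO samples. Between groups the folds were 0.936 (95% interval 0.822 to 1.07) for Hadha and 1.02 (95% interval 0.908 to 1.14) for Hadhb, and the Hadhb pseudogene Gm13910, 99.8% identical over 1428 bases, received 0.0196 CPM in WT.

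Unsaturated chains need auxiliary enzymes. Eci1, the mitochondrial enoyl-CoA isomerase, was at 121 ± 14.1 TPM in WT, above Eci2, an isomerase shared with peroxisomes, at 40.2 ± 4.099 TPM, and Decr1, the 2,4-dienoyl-CoA reductase, at 13.9 ± 1.76 TPM, with no overlap of their WT ranges. Eci1 (chr17:24426641-24439348, plus strand) was at 115, 119, 111, 106 and 111 CPM in WT and at 108, 105, 114, 110.3 and 115 CPM in recent KO samples, among the steadiest values of the 31 genes, with a coefficient of variation of 4.32% and 3.83%. Its fold of 0.983 (95% interval 0.907 to 1.06) was the tightest of the step. Eci2 and Decr1 had folds of 1.06 (95% interval 0.932 to 1.196) and 1.06 (95% interval 0.949 to 1.17).

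Electron transfer held the widest spread between partners. Etfb and Etfa are the subunits of the electron transfer flavoprotein, which pair in equal numbers, and Etfdh is the oxidoreductase that hands their electrons to ubiquinone. Etfb was at 1943 ± 85.9 TPM in WT and ranked 83 among all genes, whereas Etfa was at 144 ± 14.6 TPM and Etfdh at 15.8 ± 1.76 TPM. The ratio of Etfb to Etfa was 13.6 ± 1.47 in WT and 12.7 ± 1.43 in recent KO samples. The Etfb reads were assigned at 99.7% to the full coding transcript Etfb-201 of 6 exons, and the overlapping model Gm45233 received 0.233 CPM in WT.

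Etfb (chr7:43444083-43457800, plus strand) was at 1359, 1529, 1670.4, 1511 and 1382 CPM in WT and at 1679.7, 1418, 1190.5, 1293 and 1266 CPM in recent KO samples. Recent KO 3, 4 and 5 were below every WT sample and recent KO 1 was the highest of all 10 (log2 fold change -0.12 with SE 0.10, 95% interval -0.33 to 0.09; edgeR adjusted p = 0.744, unadjusted p = 0.229, exact two-sided permutation p = 0.262). Etfa was even between samples, with 193 to 211 CPM in WT, 188 to 205 CPM in recent KO samples and a fold of 0.977 (95% interval 0.907 to 1.05), and Etfdh had a fold of 0.974 (95% interval 0.842 to 1.13).

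**Figure D5:**
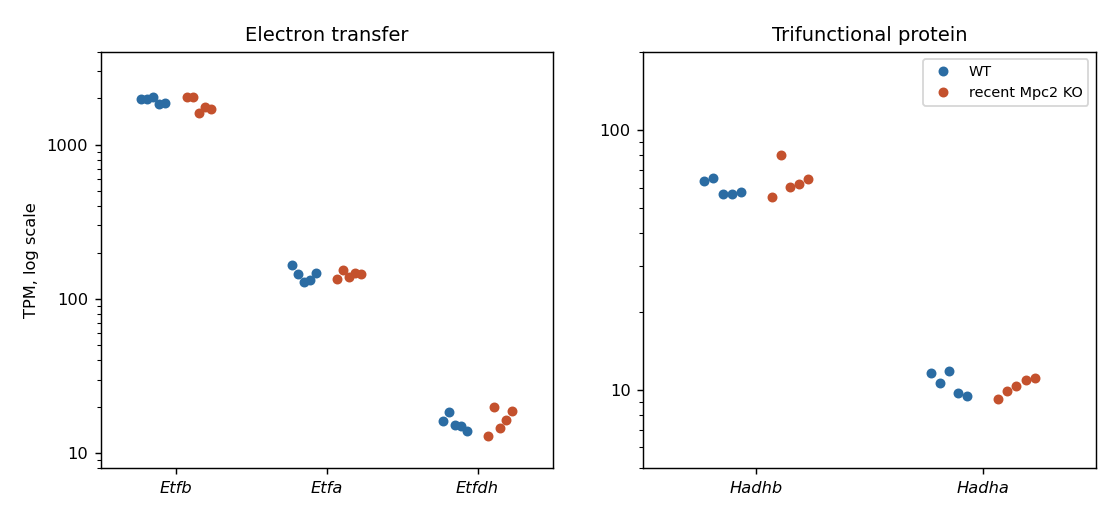
TPM on a log axis of the electron transfer genes (left) and the subunits of the trifunctional protein (right) in each WT (blue) and recent Mpc2 KO (orange) sample. Etfb lies more than 10 times above Etfa and Hadhb more than 4 times above Hadha in every sample of both groups.

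The PPAR regulators were hardly detected. Ppard, the more abundant, had 2 to 16 reads per sample and 0.391, 0.443, 0.237, 0.698 and 0.957 CPM in WT and at 0.211, 0.489, 0.537, 0.122 and 0.3603 CPM in recent KO samples, in overlapping ranges and too few reads for the test. Ppara had at most 5 reads in a sample, and more than 3 in 1 of 10. A difference in either was not detectable at this depth.

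The wider pathway was read from 79 further genes in 8 groups, of which 61 were tested. None passed the threshold by edgeR, and DESeq2 called 0. At an unadjusted p under 0.05 there were 9, with 4 higher and 5 lower, which is 14.8% beside 10.2% of all genes. The 14 tested genes of peroxisomal oxidation had 12 lower and 2 higher estimates (median log2 fold change -0.10), and 9 lower and 5 higher with library size only, while the 61 genes together went from 36 lower and 25 higher to 28 lower and 33 higher. The 7 genes of lipolysis and lipid droplets had 5 lower and 2 higher, the 7 thioesterases 4 and 3, and the 12 other mitochondrial genes 7 and 5. The 5 tested genes of carnitine transport had 2 lower and 3 higher, the 6 of uptake, binding and activation 2 and 4, the 3 around malonyl-CoA and synthesis 0 and 3, and the 7 regulators and PPAR targets 4 and 3.

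The 4 smallest p-values of the wider pathway belonged to Fabp4, Fabp5, Acot1 and Acot7. Fabp4, a fatty acid binding protein of fat cells and macrophages, was at 0.147, 0.775, 0.356, 0.698 and 1.02 CPM in WT and at 1.19, 1.75, 2.64, 1.16 and 1.18 CPM in recent KO samples. It was low in all, yet every recent KO sample lay above every WT sample (log2 fold change 1.42 with SE 0.43, 95% interval 0.50 to 2.35; edgeR adjusted p = 0.2398, unadjusted p = 0.00546, exact two-sided permutation p = 0.00794, the smallest that 5 against 5 allow). Fabp5, a binding protein of many cell types, was at 331 ± 24.4 CPM in WT and at 387 ± 37.3 CPM in recent KO samples, with overlap (log2 fold change 0.22 with SE 0.08, 95% interval 0.06 to 0.39; edgeR adjusted p = 0.302). The macrophage marker sum given above moved in the same direction as Fabp4, and its part was not tested. The thioesterases Acot1 (log2 fold change 0.45, SE 0.17) and Acot7 (-0.14, SE 0.06), which release fatty acids from coenzyme A, had edgeR adjusted p-values of 0.375 and 0.459. The 5 further genes at an unadjusted p under 0.05, named after their values were seen, were Scp2 (log2 fold change -0.18, SE 0.08), Acox3 (-0.31, SE 0.14) and Abcd2 (-0.27, SE 0.13) of peroxisomal oxidation and the mitochondrial Mcee (-0.22, SE 0.10) and Etfrf1 (0.31, SE 0.14), with edgeR adjusted p-values of 0.459 to 0.486. Of the 14 regulators and PPAR target genes of the wider pathway, 7 were tested and 7 had too few reads. Among the latter, Pdk4, Vnn1 and Cyp4a10, PPAR targets known from liver, had at most 1, 1 and 0 reads in a sample. These 3 were named after their values were seen.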

How the data were processed

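RNA of sorted GMPs was sequenced by the authors from SMARTseq libraries as paired 150-base reads and quantified with Salmon (version 1.5.1 in the submitters' processing notes) on Gencode M27. For each sample the authors deposited estimated counts per transcript, which are not normalized, and TPM. Their own DESeq2 table of fold changes and p-values was not used. Transcripts were matched to GENCODE M21 (GRCm38) by identifier, 137161 of 140789 (97.4%), summed per gene and rounded. All positions are GRCm38; the deposited effective lengths served only for the length offset.

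Groups came from the sample titles. Genes kept by filterByExpr (minimum count 10) were tested with edgeR 4.0.16 (quasi-likelihood, TMM, R 4.3.3), with no covariate and with Benjamini-Hochberg adjusted p-values called at 0.05. The spread between samples corresponded to a biological coefficient of variation of 0.160. Exact permutation tests of 5 against 5 allow no p below 0.00794. Replicate numbers did not pair samples (correlations of deviations -0.174 to 0.0365). Fits were tested on simulated data. Copies were found with BLAST 2.17.0. Alternatives were other normalizations and filters, a length offset, robust dispersions, a replicate block, DESeq2 1.42.0, limma 3.58.1 on log2(TPM + 1) and log2(TPM + 0.1), and leaving out each sample.

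All 31 genes are named. Values of every sample are given for the 6 smallest p-values and the most abundant gene of each step. The members and lists were chosen with earlier results of these data known.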

Additional observations from a re-analysis of the deposited data

Results flagged for a closer look

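Within each group of 5, a sample was set apart where its gap to the nearest other exceeded 0.71 of the group's range. Of 70 groups examined, 2 were set apart, and chance sets apart about 1 in 20. Hadhb in recent KO 2 was at 166 CPM, while the other 4 recent KO samples were at 130 to 140.2 CPM; the Hadhb log2 fold change without that sample is within the leave-one-out range given next. Cd36 in WT 2 was at 0.277 CPM, a few reads, while the other WT samples were at 0 to 0.0776 CPM.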

How the results depend on the processing

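The 27 genes gave 0 calls in all alternatives but 3, in which Cpt1a was the 1 call: DESeq2, no filter on low counts, and without recent KO 1 (leave-one-out range 0 to 1). Calls among the wider pathway stayed at 0 throughout. Over all genes, 41 were called; counts were 206 without a filter, 156 with DESeq2, 20 with the replicate number as a block, and 25, 24 and 13 with limma on log2(TPM + 1), on log2(TPM + 0.1) and without a filter. Leaving out a sample gave 25 to 91, with 26 without WT 3, 25 without recent KO 3 or 4 and 91 without recent KO 2. The block changed no call among the 27 genes (Cpt1a log2 fold change 0.43, edgeR adjusted p = 0.238), and no sample correlated best with its own number in the other group.

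The Mpc2 log2 fold change lost significance with the length offset (-1.40), robust dispersions (-1.46), the replicate block (-1.46), limma on log2(TPM + 1) with and without a filter (-1.35 in both) and log2(TPM + 0.1) (-1.38), and without recent KO 1; leaving out samples gave -1.60 to -1.31.

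Of the 27 genes, 10 kept the sign of the log2 fold change in every alternative that tested them and 17, none called, did not. With the length offset the reversed values were Slc27a1 0.23, Acsl4 0.0050, Acadvl -0.015, Acad9 0.0089, Acad10 -0.30 and Acad11 0.18. With limma on log2(TPM + 1) they were Slc27a1 0.22, Acsl4 0.029, Acsl5 0.020, Acadm 0.027, Acad9 0.073, Acad11 0.13, Echs1 0.049, Etfa 0.011 and Etfdh 0.051, the same without the filter, where Acad10 was -0.099. On log2(TPM + 0.1) they were Slc27a1 0.30, Acsl4 0.046, Acsl5 0.021, Acadm 0.028, Acad9 0.079, Acad11 0.18, Echs1 0.050, Etfa 0.011 and Etfdh 0.053. With library size only they were Acsl1 0.0094, Acsl4 0.051, Acad11 0.018, Echs1 0.048, Eci1 0.045, Etfa 0.034 and Etfdh 0.036. The median of all genes shifted by 0.071 with library size only and by 0.053 to 0.059 with limma on TPM. Leaving out samples gave ranges across 0 for Slc27a1 (-0.16 to 0.011), Acsl3 (-0.022 to 0.12), Acsl4 (-0.073 to 0.072), Acadvl (-0.043 to 0.049), Acadl (-0.0089 to 0.078), Acad10 (-0.072 to 0.19), Acad11 (-0.16 to 0.050), Hadhb (-0.044 to 0.059), Echs1 (-0.052 to 0.030), Hadh (-0.036 to 0.059) and Etfdh (-0.095 to 0.021). The causes were not tested. Cd36, Acsl6, Ppara and Ppard had too few reads for a comparison at this depth.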
